A study of Mus musculus with 38 samples.

Results

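The effect of oral NAM/PN, a combination of nicotinamide (NAM, a form of vitamin B3) and pyridoxine (PN, a form of vitamin B6), on regenerating muscle of young mice was examined in bulk transcriptomes. Injured gastrocnemius muscle of 3 NAM/PN mice was compared with that of 5 vehicle mice, which gave 8 of the 38 libraries of the series, and these were chosen by treatment, leg and age in the sample titles. All 8 animals were young male mice, and C57BL/6JRj according to the methods of the study. In each, the muscle was taken 5 days after injection of cardiotoxin, a venom peptide that destroys muscle fibres. NAM/PN mice received 200 mg/kg NAM and 4 mg/kg PN per day by oral gavage in 1% carboxymethyl cellulose, and vehicle mice received carboxymethyl cellulose alone. Cardiotoxin was thus shared by both groups, and all 8 mice also gave the contralateral leg, which was uninjured. Each library came from the gastrocnemius of 1 leg and holds RNA of all cells in the tissue taken. Fewer cells of a type and less RNA per cell thus cannot be told apart. Whether the whole muscle or a piece of it was extracted is not stated.

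After cardiotoxin, dead fibres are cleared by macrophages, muscle stem cells that express the transcription factor Pax7 leave quiescence and divide, and their progeny switch on Myod1 and Myog, stop dividing and fuse into new fibres with embryonic myosin. Fibro-adipogenic progenitors, macrophages and endothelial cells divide in the same tissue, so transcripts of the cell cycle in whole muscle are not particular to stem cells. NAM is a precursor of NAD through the enzyme Nampt and is cleared by Nnmt, and PN is turned into pyridoxal phosphate (PLP), the cofactor of many enzymes of amino acid metabolism, in steps that start with the kinase Pdxk. The study also dealt with signalling through casein kinase 1 (CK1), beta-catenin and AKT in muscle stem cells, so genes of these pathways were listed too.

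The 8 libraries held 4032414 to 6742277 counts and 14623 to 15516 genes with at least 1 count. Levels are given in CPM, counts relative to the library total after TMM scaling. Transcripts of regenerating fibres were checked against the label for injury, and embryonic myosin Myh3 measured 1107 ± 428 CPM in the NAM/PN group (SD, n = 3) and 796 ± 255 CPM in the vehicle group (SD, n = 5), against at most 101 CPM in the contralateral leg of young mice. Fibre genes were abundant, as in labelled gastrocnemius, with titin (Ttn) at 15322 to 27881 CPM with NAM/PN and 15524 to 25294 CPM with vehicle. Vehicle replicate 4 stood apart from the other 7 libraries on the first principal component, which held 31.3% of the variance, and had the lowest median rank correlation with the others (0.934). NAM/PN replicate 1 held liver transcripts, with Alb at 81.3 CPM whereas none of the other 7 exceeded 3.00 CPM. The sample descriptions are written in 1 style for all 3 NAM/PN libraries and 3 of the vehicle libraries and in another style for vehicle replicates 2 and 5, and whether this marks a batch is not stated.

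No gene passed the test for a difference between NAM/PN and vehicle in young injured muscle. Of 12610 genes tested by edgeR's quasi-likelihood test, 0 (0%) passed an adjusted p of 0.05, and the smallest adjusted p was 0.9999. Without adjustment, 204 genes (1.62%) were higher in NAM/PN muscle and 143 (1.13%) lower at a p under 0.05. In 187 genes (1.48%) all 3 NAM/PN values lay above the 5 vehicle values, and in 165 genes (1.31%) all lay below. Log2 fold changes of NAM/PN over vehicle had a median of -0.0071 and were negative in 51.2% of genes. Their median standard error was 0.32, and 282 genes had a log2 fold change of 1 or more in size. The count of 0 held in each of 20 alternative fits, including DESeq2, voom, blocks by mouse or title number and fits that left out single libraries, with 212 to 856 genes at an unadjusted p under 0.05.

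**Figure D1:**
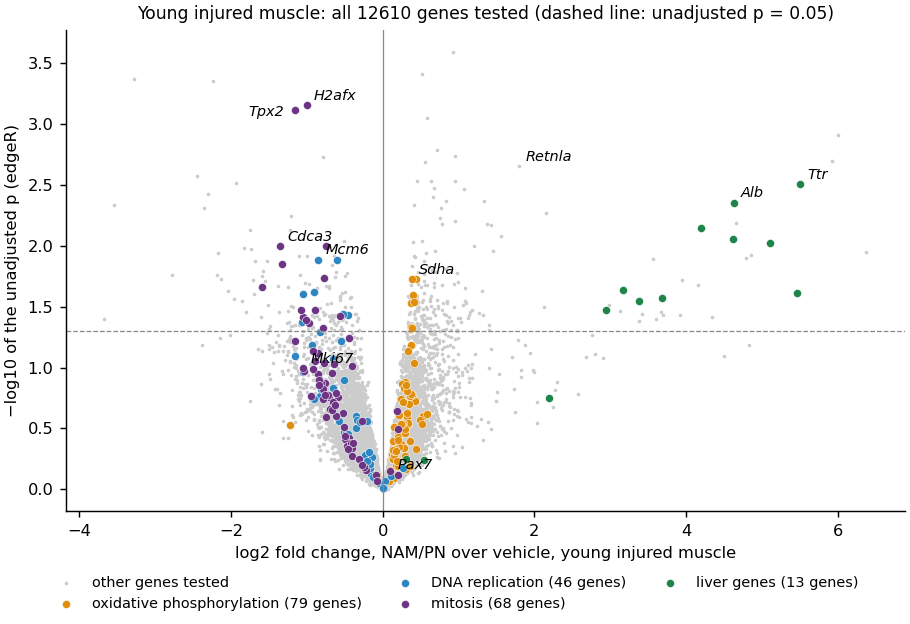
Each point is 1 of the 12610 genes tested, with the log2 fold change of NAM/PN over vehicle in young injured muscle on the x axis and −log10 of the edgeR unadjusted p on the y axis. Mitosis (68) and DNA replication (46) genes lie mostly left of 0, oxidative phosphorylation genes (79) mostly right of it, and liver genes (13) right of it, and 0 genes passed an adjusted p of 0.05.

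Of the 35 gene lists described, mitosis had the most negative median. In what follows, the brackets after a list median give its lowest and highest value on leaving out 1 of the 8 libraries. Of 72 mitosis genes 68 were tested, and 64 of them had a negative log2 fold change, against 51.2% of all genes. Over the 68 genes, log2 fold changes ran from -1.59 to 0.21. The median over the list was -0.68 (-1.05 without NAM/PN replicate 1 and -0.54 without NAM/PN replicate 2), against -0.0071 over all genes. At an unadjusted p under 0.05, 14 members were lower and 0 higher, against 1.13% and 1.62% of all genes. Below all vehicle values lay 8 members, against 1.31% of all genes, while none (0) passed the adjusted test.

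Tpx2 (ENSMUSG00000027469, chromosome 2, 152847964 to 152895321), a factor that builds the mitotic spindle, measured 8.23, 4.81 and 7.60 CPM in NAM/PN replicates 1 to 3 and 12.7, 10.2, 23.4, 19.5 and 11.0 CPM in vehicle replicates 1 to 5. All 3 NAM/PN values were below the lowest vehicle value, with a log2 fold change of -1.15 (SE 0.31, 95% interval -1.79 to -0.52). Its edgeR unadjusted p was 7.70e-04, and its adjusted p 0.9999. H2afx (ENSMUSG00000049932, chromosome 9, 44334694 to 44336077), a histone H2A variant that is phosphorylated at DNA breaks, measured 6.31, 3.39 and 5.02 CPM in NAM/PN replicates 1 to 3 and 9.53, 8.22, 14.2, 7.57 and 9.69 CPM in vehicle replicates 1 to 5, again without overlap. Its log2 fold change was -1.003 (SE 0.27, 95% interval -1.55 to -0.45), with an unadjusted p of 7.02e-04. Mki67 (ENSMUSG00000031004, chromosome 7, 135689784 to 135716361), the gene of the proliferation antigen Ki67, measured 18.5, 9.90 and 12.1 CPM in NAM/PN replicates 1 to 3 and 23.0, 18.7, 43.9, 35.3 and 19.1 CPM in vehicle replicates 1 to 5. NAM/PN replicate 1 was just below the lowest vehicle library, vehicle replicates 3 and 4 were well above the rest, and the log2 fold change of -1.05 (SE 0.63, 95% interval -2.32 to 0.22) had an interval that held 0.

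Top2a, the topoisomerase that untangles chromosomes before division, measured 62.5, 35.6 and 40.3 CPM in NAM/PN replicates 1 to 3 and 64.5, 53.3, 116, 91.8 and 63.4 CPM in vehicle replicates 1 to 5. Here NAM/PN replicate 1 lay among the vehicle values and the other two below them. The log2 fold change of Top2a was -0.75 (SE 0.65, 95% interval -2.07 to 0.56). Cdca3, which serves mitotic entry, measured 5.07, 2.40 and 2.98 CPM in NAM/PN replicates 1 to 3 and 8.44, 7.004, 13.2, 8.86 and 7.30 CPM in vehicle replicates 1 to 5 without overlap, and its log2 fold change was -1.35 (SE 0.50, 95% interval -2.36 to -0.34). Cdca5, the cohesin protector sororin, was low in all 8 libraries, at 0.543 to 0.566 CPM with NAM/PN and 1.10 to 1.97 CPM with vehicle, and had a log2 fold change of -1.33 (SE 0.51). Smc2, the condensin subunit that compacts chromosomes, ranged from 12.6 to 23.4 CPM with NAM/PN and 21.9 to 38.1 CPM with vehicle, with a log2 fold change of -0.75 (SE 0.28). The mitotic kinase Cdk1 and its partner cyclin B1 (Ccnb1) overlapped between groups, with log2 fold changes of -0.41 (SE 0.65) and -0.69 (SE 0.55). The most abundant member described, the tubulin Tubb5, ranged from 219.6 to 352 CPM with NAM/PN and 259 to 458 CPM with vehicle.

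Genes of DNA replication were also mostly negative. Of 48 genes 46 were tested, 40 had a negative log2 fold change, and values ran from -1.16 to 0.26. The median was -0.47 (-0.56 without NAM/PN replicate 1 and -0.31 without NAM/PN replicate 2). At an unadjusted p under 0.05, 7 were lower (1.13% of all genes) and 0 higher (1.62%), and 2 lay below all vehicle values (1.31%). Mcm6, a subunit of the replicative helicase, measured 9.87, 5.66 and 6.10 CPM in NAM/PN replicates 1 to 3 and 11.6, 9.29, 15.9, 12.6 and 15.7 CPM in vehicle replicates 1 to 5. NAM/PN replicate 1 reached above the lowest vehicle library, the other two did not, and the log2 fold change of Mcm6 was -0.85 (SE 0.33, 95% interval -1.51 to -0.19). Further subunits of that helicase, Mcm3 and Mcm5, had log2 fold changes of -0.60 (SE 0.23) and -0.93 (SE 0.49). Ccne2, the cyclin of the step into S phase, ranged from 3.39 to 7.95 CPM with NAM/PN and 6.25 to 17.1 CPM with vehicle, and the DNA ligase Lig1 from 31.9 to 64.7 CPM with NAM/PN and 36.997 to 104 CPM with vehicle, with log2 fold changes of -0.90 (SE 0.38) and -0.66 (SE 0.37). Transcription factors and inhibitors of the cell cycle were more mixed, with 21 of 29 negative, a median of -0.17 (-0.30 without NAM/PN replicate 1 and -0.11 without NAM/PN replicate 2) and 0 members at an unadjusted p under 0.05 in either direction. The log2 fold changes of E2f1 and E2f8, an activator and a repressor of S phase genes, were -0.80 (SE 0.46) and -1.01 (SE 0.52). The inhibitor p21 (Cdkn1a) measured 499 ± 39.8 CPM in the NAM/PN group (SD, n = 3) and 447 ± 118 CPM in the vehicle group (SD, n = 5), with a log2 fold change of 0.16 (SE 0.43, 95% interval -0.72 to 1.03).

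Promoters of genes that serve mitosis are known for pairs of a CCAAT box and a cell cycle homology region (CHR), and those of replication genes for E2F sites. These letters were searched on both strands of the 300 bases that RefSeq gives per gene on GRCm38.p6, from 250 bases before to 50 after the start, with the first window listed per gene. The motifs were CCAAT for the box, TTTGAA for the CHR and TTCCCGC or TTGGCGC for E2F, and their letters can overlap. A window was found for 56 of the 68 mitosis genes tested, 37 of the 46 replication genes and 9876 of all 12610 genes. CCAAT was in 71.4% of mitosis windows and 59.5% of replication windows, against 38% of those of all genes tested. The CHR was in 69.6%, 13.5% and 11.6%, and E2F letters were in 19.6%, 51.4% and 12.2%, respectively. Both CCAAT and the CHR were found in 33 mitosis windows (58.9%), against 4.76% of windows of all genes tested. Windows of oxidative phosphorylation genes held the CHR in 9.23% and E2F letters in 15.4%. A match describes letters and not a bound site. The following 5 windows, for the 3 mitosis and 2 replication genes with the smallest unadjusted p that had a window (H2afx and Tpx2 are named only), are shown 5′ to 3′ with these motifs in capitals.
Smc2 (chr4:52438971-52439270, plus strand): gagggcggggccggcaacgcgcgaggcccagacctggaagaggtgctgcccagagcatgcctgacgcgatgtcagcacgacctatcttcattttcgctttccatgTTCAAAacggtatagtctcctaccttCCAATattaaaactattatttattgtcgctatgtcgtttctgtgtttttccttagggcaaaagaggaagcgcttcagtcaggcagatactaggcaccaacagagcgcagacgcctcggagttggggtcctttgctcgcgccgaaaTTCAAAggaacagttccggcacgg
Cdca3 (chr6:124829926-124830225, plus strand): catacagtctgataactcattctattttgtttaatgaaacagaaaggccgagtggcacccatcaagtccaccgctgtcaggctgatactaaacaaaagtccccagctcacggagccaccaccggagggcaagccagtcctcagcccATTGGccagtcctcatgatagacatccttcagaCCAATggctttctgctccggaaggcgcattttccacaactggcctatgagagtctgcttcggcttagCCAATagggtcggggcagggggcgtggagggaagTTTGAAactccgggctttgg
Cdca5 (chr19:6084847-6085146, plus strand): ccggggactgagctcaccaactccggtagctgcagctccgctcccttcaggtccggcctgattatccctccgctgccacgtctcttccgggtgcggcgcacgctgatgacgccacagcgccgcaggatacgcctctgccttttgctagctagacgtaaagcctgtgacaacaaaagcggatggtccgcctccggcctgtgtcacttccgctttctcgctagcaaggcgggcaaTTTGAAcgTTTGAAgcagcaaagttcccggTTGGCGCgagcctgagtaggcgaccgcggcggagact
Mcm6 (chr1:128359656-128359955, minus strand): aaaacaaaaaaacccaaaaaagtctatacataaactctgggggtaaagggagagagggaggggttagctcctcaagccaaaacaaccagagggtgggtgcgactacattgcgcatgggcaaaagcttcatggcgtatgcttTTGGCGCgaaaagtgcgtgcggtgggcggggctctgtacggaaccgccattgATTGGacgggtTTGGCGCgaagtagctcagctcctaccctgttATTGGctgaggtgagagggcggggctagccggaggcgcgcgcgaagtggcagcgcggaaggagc
Mcm3 (chr1:20820263-20820562, minus strand): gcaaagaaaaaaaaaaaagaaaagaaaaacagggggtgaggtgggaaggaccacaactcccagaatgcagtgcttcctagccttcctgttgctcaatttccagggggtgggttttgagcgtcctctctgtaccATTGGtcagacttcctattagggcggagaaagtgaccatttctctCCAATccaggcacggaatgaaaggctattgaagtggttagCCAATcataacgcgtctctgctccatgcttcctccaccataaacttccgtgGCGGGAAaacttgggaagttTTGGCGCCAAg

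The level of a list in a library was taken as the mean of log2(CPM + 1) over its genes tested. For mitosis it was 3.05, 2.39 and 2.64 in NAM/PN replicates 1 to 3 and 3.15, 2.89, 3.62, 3.12 and 3.32 in vehicle replicates 1 to 5. The 2 lowest of the 8 libraries were NAM/PN replicates 2 and 3, while NAM/PN replicate 1 lay between vehicle replicates 2 and 4, so the groups overlapped. For DNA replication the level was 2.78, 2.33 and 2.54 in NAM/PN replicates 1 to 3 and 2.75, 2.63, 3.12, 3.02 and 2.95 in vehicle replicates 1 to 5, with the same overlap through NAM/PN replicate 1. Without that library the median log2 fold change of mitosis genes was -1.05. The 21 alternatives, which include the difference of the mean list levels (-0.52), ranged from -1.07 to -0.52. The corresponding range for replication genes was -0.57 to -0.31. With only the 3 vehicle libraries in the description style of the NAM/PN libraries, the mitosis median was -0.84. Macrophage markers were negative in 25 of 30 genes, and their summed level was 5311 to 9568 CPM with NAM/PN and 6409.8 to 9193 CPM with vehicle. Genes of the fibrillar matrix were negative in 40 of 49. By the mean log2 level, NAM/PN replicates 2 and 3 were among the 3 lowest of the 8 libraries for both lists. The level of mature fast fibre genes was 9.53, 10.13 and 10.41 in NAM/PN replicates 1 to 3. In vehicle replicates 1 to 5 it was 9.46, 10.26, 9.55, 9.72 and 9.90. The part of these cells and of fibre content in the lower mitosis values was not tested.

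**Figure D2:**
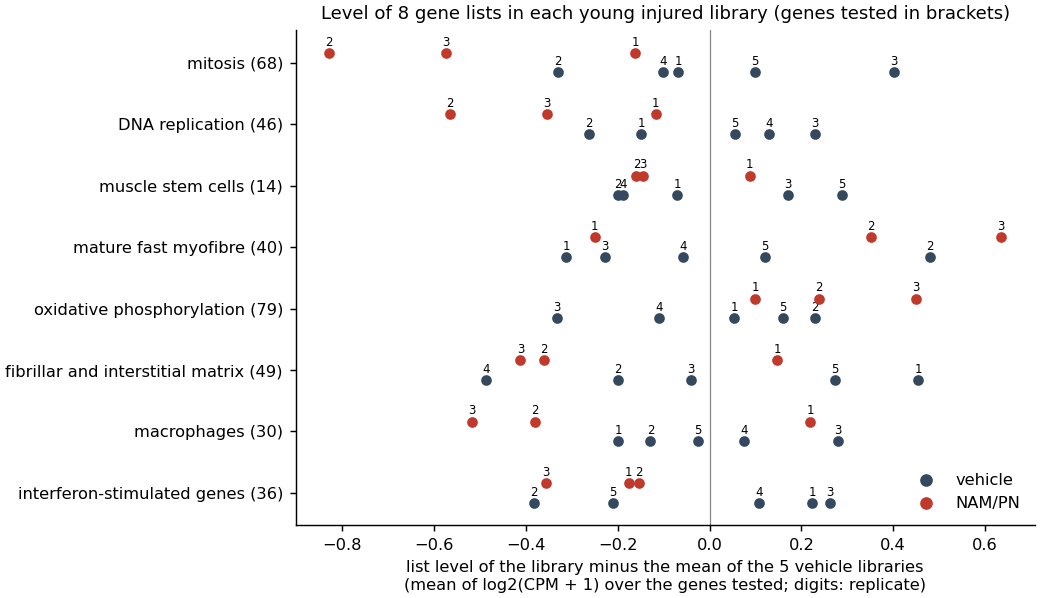
List level per library (mean of log2(CPM + 1) over the genes tested, number in brackets) minus the mean of the 5 vehicle libraries, for 8 lists; red points are NAM/PN and dark points vehicle libraries, with the replicate number above each. For mitosis, NAM/PN replicates 2 and 3 lie left of all vehicle libraries and replicate 1 does not.

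No gene of the lists for muscle stem cells, myogenic commitment and fusion, or embryonic fibres had an unadjusted p under 0.05. Pax7 (ENSMUSG00000028736, chromosome 4, 139737062 to 139833528) measured 21.5, 20.6 and 17.0 CPM in NAM/PN replicates 1 to 3 and 21.2, 15.5, 22.1, 6.93 and 25.6 CPM in vehicle replicates 1 to 5. The 3 NAM/PN values lay within the vehicle range, in which replicate 4 was low, and the log2 fold change was 0.10 (SE 0.34, 95% interval -0.58 to 0.79). Of 14 stem cell genes tested (of 16), 5 had a positive log2 fold change and the median was -0.10 (-0.20 without NAM/PN replicate 1 and -0.0335 without vehicle replicate 5), with 0 at an unadjusted p under 0.05. Cdh15, the cadherin of stem cells and myoblasts, had the smallest unadjusted p among them (0.121) and a log2 fold change of -0.38 (SE 0.24). Myf5, the early myogenic factor, measured 3.91 ± 0.0983 CPM in the NAM/PN group (SD, n = 3) and 2.92 ± 1.46 CPM in the vehicle group (SD, n = 5). Myod1, which commits myoblasts, measured 25.2, 18.1 and 24.1 CPM in NAM/PN replicates 1 to 3 and 23.7, 23.9, 18.7, 16.4 and 41.4 CPM in vehicle replicates 1 to 5, with a log2 fold change of -0.15 (SE 0.57, 95% interval -1.30 to 1.01). Myog, the factor of differentiating myoblasts, measured 89.7, 56.6 and 72.6 CPM in NAM/PN replicates 1 to 3 and 106, 85.0, 108, 58.8 and 166 CPM in vehicle replicates 1 to 5. NAM/PN replicate 2 was just below the lowest vehicle library, the other two lay within the vehicle range, and the log2 fold change was -0.52 (SE 0.56, 95% interval -1.66 to 0.61).

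**Figure D3:**
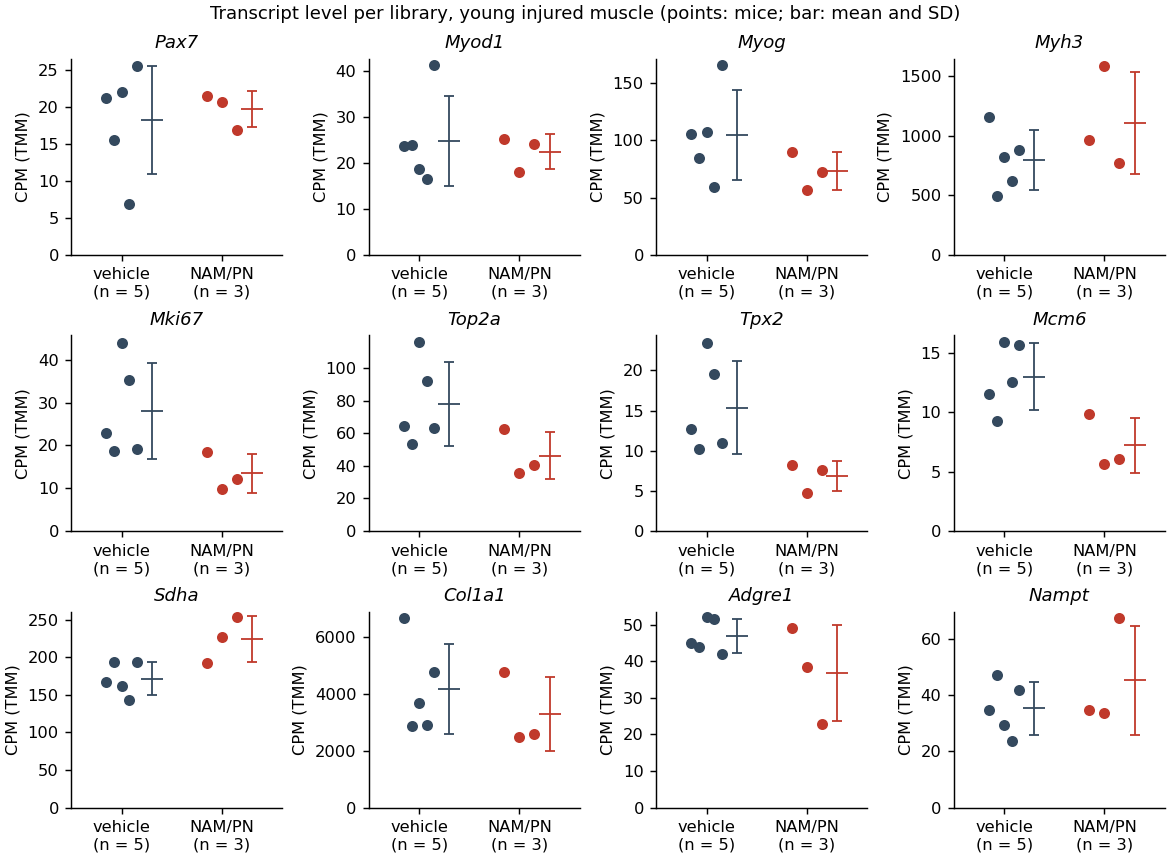
Level (CPM, TMM-scaled) of 12 genes in the 5 vehicle (dark) and 3 NAM/PN (red) libraries of young injured muscle; each point is 1 mouse and the bar gives the mean and SD. Of the genes shown, Mki67 and Tpx2 have no overlap between the groups, and Pax7, Myod1 and Myh3 overlap widely.

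Of the 20 genes of myogenic commitment and fusion, 13 were positive, with a median of 0.06 (-0.0309 without NAM/PN replicate 3 and 0.12 without vehicle replicate 1). The fusion proteins myomaker (Mymk) and myomixer (Mymx) had log2 fold changes of 0.11 (SE 0.82) and -0.58 (SE 0.55). Embryonic and regenerating fibre genes had a median of 0.17 (0.15 without vehicle replicate 2 and 0.25 without NAM/PN replicate 3), with 15 of 20 positive and 0 at an unadjusted p under 0.05. Myh3 measured 960.1, 1589 and 772 CPM in NAM/PN replicates 1 to 3 and 1159.8, 495, 824, 623 and 880.3 CPM in vehicle replicates 1 to 5. NAM/PN replicate 2 was the highest of the 8 libraries, the other two lay within the vehicle range, and the log2 fold change was 0.48 (SE 0.95, 95% interval -1.46 to 2.41). Cardiac actin (Actc1), which is expressed again in young fibres, measured 4659.6, 6079 and 2915 CPM in NAM/PN replicates 1 to 3 and 4459.7, 1789, 1778, 862 and 2706 CPM in vehicle replicates 1 to 5, with a log2 fold change of 0.97 (SE 0.59, 95% interval -0.23 to 2.17). The intervals of Myh3 and Mymk, whose spread is estimated over all 38 libraries, reach past a 2-fold difference in both directions. By this fit such a difference was not detectable. In the 8 libraries themselves, Mymk ranged from 172 to 229 CPM with NAM/PN and 121 to 238 CPM with vehicle.

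Genes of mature fast fibres and of energy metabolism had positive medians with all 8 libraries, and that of glycolysis turned negative without NAM/PN replicate 3. Of 40 fast fibre genes, 36 were positive, with a median of 0.25 (0.0751 without NAM/PN replicate 3 and 0.40 without NAM/PN replicate 1). Among them 1 was higher at an unadjusted p under 0.05, against 1.62% of all genes. Myh4, the myosin of fast IIb fibres, measured 8926, 13611 and 13345 CPM in NAM/PN replicates 1 to 3 and 7029.7, 18955, 11642, 5572 and 9937 CPM in vehicle replicates 1 to 5, with a log2 fold change of 0.17 (SE 0.33, 95% interval -0.51 to 0.85). Muscle creatine kinase (Ckm) had a log2 fold change of 0.19 (SE 0.28), which was -0.14 without NAM/PN replicate 3. Skeletal actin (Acta1) ranged from 13975 to 22055 CPM with NAM/PN and 11437 to 19018 CPM with vehicle. Of 79 subunits of oxidative phosphorylation, all tested, 72 were positive, against 48.8% of all genes, and values ran from -1.22 to 0.59. The median was 0.26 (0.17 without NAM/PN replicate 3 and 0.35 without NAM/PN replicate 1). At an unadjusted p under 0.05, 8 were higher (1.62% of all genes) and 0 lower (1.13%), and 6 lay above all vehicle values (1.48%). The 21 alternatives, which include the difference of the mean list levels, stayed between 0.17 and 0.36.

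Sdha (ENSMUSG00000021577, chromosome 13, 74322254 to 74350280), the catalytic subunit of complex II, measured 193, 228 and 253 CPM in NAM/PN replicates 1 to 3 and 167, 193, 162, 143 and 193 CPM in vehicle replicates 1 to 5. NAM/PN replicates 2 and 3 were above all vehicle values and replicate 1 just below the highest 2, with a log2 fold change of 0.39 (SE 0.16, 95% interval 0.07 to 0.71) and an unadjusted p of 0.0188. Ndufs1, a core subunit of complex I, ranged from 128 to 161 CPM with NAM/PN and 87.9 to 129 CPM with vehicle, with a log2 fold change of 0.44 (SE 0.18). Atp5o, a stalk subunit of ATP synthase, ranged from 522 to 557 CPM with NAM/PN and 357 to 447 CPM with vehicle without overlap, with a log2 fold change of 0.40 (SE 0.17). The level of the list was 6.82, 6.95 and 7.17 in NAM/PN replicates 1 to 3 and 6.77, 6.95, 6.38, 6.61 and 6.88 in vehicle replicates 1 to 5, so that the groups overlapped. Of 28 genes of glycolysis and glycogen, 22 were positive, with a median of 0.23 (-0.0272 without NAM/PN replicate 3 and 0.44 without NAM/PN replicate 1). Triosephosphate isomerase (Tpi1) ranged from 298 to 376 CPM with NAM/PN and 146 to 285 CPM with vehicle without overlap, and phosphofructokinase (Pfkm) had a log2 fold change of 0.46 (SE 0.22). The mitochondrially encoded share of counts was 8.41%, 9.70% and 14.98% in NAM/PN replicates 1 to 3 and 6.67% to 12.3% in vehicle libraries. Red blood cell genes had a median of 0.21 (0.0336 without vehicle replicate 3 and 0.50 without NAM/PN replicate 1) over 6 genes, and their list levels overlapped between groups.

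No enzyme that handles NAM passed the adjusted test. Nampt, the rate-limiting enzyme of NAD salvage, measured 34.6, 33.5 and 67.3 CPM in NAM/PN replicates 1 to 3 and 34.7, 47.05, 29.2, 23.5 and 41.9 CPM in vehicle replicates 1 to 5. NAM/PN replicate 3 was the highest of the 8 libraries and the other two lay within the vehicle range, and the log2 fold change of 0.35 (SE 0.29, 95% interval -0.23 to 0.93) was -0.05 without replicate 3. Nnmt, the methyltransferase that clears NAM, measured 6.03, 4.52 and 3.39 CPM in NAM/PN replicates 1 to 3 and 7.81, 7.61, 7.63, 7.57 and 8.30 CPM in vehicle replicates 1 to 5. All 3 NAM/PN values lay below the vehicle values, which were close to each other, and the log2 fold change was -0.74 (SE 0.51, 95% interval -1.78 to 0.29) with an unadjusted p of 0.155. Of 30 genes of NAM and NAD metabolism tested (of 36), 17 were positive, with a median of 0.03 (-0.00897 without NAM/PN replicate 1 and 0.0635 without NAM/PN replicate 2). Only Qprt, which makes nicotinic acid mononucleotide from quinolinate, had an unadjusted p under 0.05 (0.0357), against 1.62% of all genes higher. It measured 1.92, 0.990 and 0.9496 CPM in NAM/PN replicates 1 to 3 and 1.41, 0.305, 0, 0.322 and 0.600 CPM in vehicle replicates 1 to 5, which is few counts. Nmnat1, the nuclear enzyme that completes NAD, had a log2 fold change of 0.44 (SE 0.27).

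No enzyme that handles PN passed the adjusted test, and 4 of 7 genes tested (of 9) were positive, with a median of 0.27 (0.0156 without NAM/PN replicate 3 and 0.30 without vehicle replicate 5), and of -0.06 without the filter on low counts. Pyridoxal kinase (Pdxk) measured 18.9, 19.7 and 16.4 CPM in NAM/PN replicates 1 to 3 and 21.1, 16.3, 19.5, 23.0 and 15.7 CPM in vehicle replicates 1 to 5, with a log2 fold change of -0.06 (SE 0.24, 95% interval -0.55 to 0.43). The PLP phosphatase Pdxp had a log2 fold change of 0.41 (SE 0.32). The PLP-binding protein Plpbp ranged from 14.1 to 24.5 CPM with NAM/PN and 12.1 to 18.3 CPM with vehicle. Of 34 PLP-dependent enzymes tested (of 45), 19 were positive, with a median of 0.07 (-0.0243 without NAM/PN replicate 3 and 0.10 without NAM/PN replicate 2). At an unadjusted p under 0.05, 2 were lower (1.13% of all genes) and 0 higher (1.62%). The lower ones were the serine synthesis enzyme Psat1 and the mitochondrial serine hydroxymethyltransferase Shmt2, with log2 fold changes of -0.87 (SE 0.40) and -0.34 (SE 0.16). Kyat1, a transaminase of kynurenine, ranged from 8.64 to 10.4 CPM with NAM/PN and 6.09 to 7.89 CPM with vehicle without overlap. The level of this list was 3.78, 3.75 and 3.81 in NAM/PN replicates 1 to 3 and 3.68, 3.69, 3.73, 3.73 and 3.71 in vehicle replicates 1 to 5, the only 1 of 35 lists whose levels did not overlap. The means of the groups differed by 0.07 on the log2 scale, and this difference was not tested. Of all single genes tested, 1.48% lay wholly above and 1.31% wholly below the vehicle values. A list level is a mean over many genes, so these shares are no background for it. Glycogen phosphorylase (Pygm), the most abundant member, had a log2 fold change of 0.15 (SE 0.34, 95% interval -0.54 to 0.84).

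Components of CK1, beta-catenin and AKT signalling gave no gene that passed the adjusted test. Of 25 genes of the CK1 family and of beta-catenin signalling, 14 were positive, with a median of 0.03 (-0.0286 without NAM/PN replicate 2 and 0.0432 without vehicle replicate 5) and 0 at an unadjusted p under 0.05. Its lowest p belonged to Dvl1, a relay of Wnt receptors, with a log2 fold change of 0.46 (SE 0.23). Of 19 beta-catenin targets tested (of 28), 8 were positive, with a median of -0.11 (-0.30 without NAM/PN replicate 1 and 0.0144 without vehicle replicate 5). Axin2, the target used most often as a readout, measured 2.33, 1.56 and 1.49 CPM in NAM/PN replicates 1 to 3 and 2.03, 1.52, 0.395, 0.483 and 1.90 CPM in vehicle replicates 1 to 5, with a log2 fold change of 0.48 (SE 0.49, 95% interval -0.51 to 1.47). Cyclin D1 (Ccnd1), a target and a cell cycle gene, measured 36.5, 30.0 and 40.8 CPM in NAM/PN replicates 1 to 3 and 44.5, 38.4, 50.4, 50.8 and 51.0 CPM in vehicle replicates 1 to 5. Only NAM/PN replicate 3 reached into the vehicle range, and the log2 fold change of Ccnd1 was -0.39 (SE 0.23, 95% interval -0.86 to 0.07). The matricellular genes Ccn1 and Ccn5 had log2 fold changes of -1.07 (SE 0.51) and -1.07 (SE 0.50), with unadjusted p under 0.05. At that threshold 2 beta-catenin targets were lower (1.13% of all genes) and 0 higher (1.62%). Genes of AKT and PI3K signalling had a median of 0.07 (0.0145 without NAM/PN replicate 3 and 0.14 without NAM/PN replicate 1), with 19 of 28 positive. At an unadjusted p under 0.05 there was 1 higher member (1.62% of all genes) and 1 lower (1.13%). The growth factor Igf2 was the higher one, at 21.1 to 28.6 CPM with NAM/PN and 6.12 to 22.8 CPM with vehicle and a log2 fold change of 0.94 (SE 0.42). FoxO and atrophy targets had a median of -0.12 (-0.25 without NAM/PN replicate 3 and -0.00819 without vehicle replicate 2), with 8 of 24 positive. The ubiquitin ligase Fbxo30 ranged from 4.39 to 4.81 CPM with NAM/PN and 5.78 to 8.70 CPM with vehicle without overlap, and its log2 fold change was -0.57 (SE 0.24).

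Matrix genes were negative in most members. Of 49 fibrillar and interstitial matrix genes, 40 were negative, with a median of -0.30 (-0.38 without vehicle replicate 2 and -0.0765 without vehicle replicate 1). At an unadjusted p under 0.05, 1 member was lower (1.13% of all genes). That member was the protease Mmp3, at 1.27 to 4.11 CPM with NAM/PN and 2.42 to 14.4 CPM with vehicle and a log2 fold change of -1.52 (SE 0.58). Type I collagen (Col1a1) measured 4774, 2480.3 and 2595 CPM in NAM/PN replicates 1 to 3 and 6637, 2864, 3669, 2905 and 4760.1 CPM in vehicle replicates 1 to 5. NAM/PN replicates 2 and 3 were below all vehicle values, replicate 1 was the second highest of the 8, and the log2 fold change was -0.34 (SE 0.59, 95% interval -1.54 to 0.85). Col3a1 had a log2 fold change of -0.06 (SE 0.51), and Tgfb1, a growth factor of matrix production, of -0.30 (SE 0.37). Ltbp1, which stores that factor in the matrix, ranged from 25.1 to 34.2 CPM with NAM/PN and 36.9 to 54.1 CPM with vehicle without overlap. Basement membrane genes had a median of -0.09 (-0.16 without vehicle replicate 4 and 0.0306 without vehicle replicate 1) over 15 genes, and the laminin chain Lama5 a log2 fold change of -0.71 (SE 0.30). Tendon genes were negative in 8 of 9 members, with a median of -0.47 (-1.50 without NAM/PN replicate 1 and -0.15 without NAM/PN replicate 2), and summed to 299 to 808 CPM with NAM/PN and 405 to 1108 CPM with vehicle. Fmod, a proteoglycan on both lists, measured 134, 40.6 and 44.0 CPM in NAM/PN replicates 1 to 3 and 114, 230.4, 92.0, 102 and 130.1 CPM in vehicle replicates 1 to 5.

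Markers of other cells of the tissue gave no gene at an adjusted p under 0.05. Fibro-adipogenic progenitor markers were mixed, with 7 of 15 positive and a median of -0.0011 (-0.12 without NAM/PN replicate 2 and 0.13 without NAM/PN replicate 3). Pdgfra, their receptor marker, measured 17.2 ± 0.799 CPM in the NAM/PN group (SD, n = 3) and 15.8 ± 2.89 CPM in the vehicle group (SD, n = 5), with a log2 fold change of 0.12 (SE 0.23, 95% interval -0.36 to 0.59). Endothelial genes had a median of -0.06 (-0.23 without NAM/PN replicate 3 and 0.10 without NAM/PN replicate 1) over 18 genes, and Pecam1, the adhesion molecule of that lining, a log2 fold change of 0.03 (SE 0.20, 95% interval -0.37 to 0.43). The vessel genes Emcn and Vwf had -0.39 (SE 0.24) and -0.52 (SE 0.32). Pericyte and smooth muscle genes had a median of 0.07 (-0.0493 without vehicle replicate 4 and 0.12 without vehicle replicate 1) over 14 genes, with the channel subunit Abcc9 at 0.32 (SE 0.16), Rgs5 at 0.33 (SE 0.22) and Acta2 at -0.21 (SE 0.40). Schwann and nerve genes had a median of -0.41 (-0.55 without vehicle replicate 3 and -0.0627 without vehicle replicate 2) over 12 genes. Of these, 1 was higher (Egr2) and 1 lower (Ncmap) at an unadjusted p under 0.05, against 1.62% and 1.13% of all genes. Fat cell genes had a median of -0.19 (-0.48 without NAM/PN replicate 2 and -0.0228 without NAM/PN replicate 1) over 16 genes, and Thrsp, a regulator of fatty acid synthesis, had the smallest unadjusted p (0.0764).

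Immune transcripts were mostly negative, with wide spread. Of 30 macrophage genes, 5 were positive, with a median of -0.21 (-0.48 without NAM/PN replicate 1 and -0.0901 without NAM/PN replicate 3) and 0 at an unadjusted p under 0.05. The macrophage receptor F4/80 (Adgre1) measured 49.1, 38.6 and 22.8 CPM in NAM/PN replicates 1 to 3 and 45.0, 44.0, 52.1, 51.6 and 42.0 CPM in vehicle replicates 1 to 5. NAM/PN replicate 1 lay within the vehicle range and the other two below it, with a log2 fold change of -0.35 (SE 0.63, 95% interval -1.62 to 0.93). Cd68, a lysosomal protein of macrophages, had a log2 fold change of -0.21 (SE 0.55), Mrc1, the mannose receptor, -0.34 (SE 0.29), and Ly6c2 of young monocytes -1.41 (SE 0.96). The 2 most abundant members, Apoe and Lyz2, had 0.03 (SE 0.48) and -0.09 (SE 0.68). Neutrophil genes had a median of -0.42 (-0.44 without NAM/PN replicate 1 and -0.0382 without vehicle replicate 5) over 8 genes of 13, and S100a8 measured 1.41 to 5.35 CPM with NAM/PN and 0.789 to 2.90 CPM with vehicle. T and NK cell genes had a median of -0.20 (-0.43 without NAM/PN replicate 1 and -0.11 without vehicle replicate 1) over 7 genes of 23, and the 2 of 10 B cell genes tested had a median of -0.52 (-0.78 without NAM/PN replicate 1 and 0.0611 without vehicle replicate 1). Of 36 interferon-stimulated genes, 29 were negative, with a median of -0.31 and 0 at an unadjusted p under 0.05. Ifih1, a sensor of viral RNA, and Ifit2 had -0.45 (SE 0.25) and -0.94 (SE 0.55).

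Of 24 inflammatory mediators tested (of 34), 9 were positive, with a median of -0.11 (-0.57 without NAM/PN replicate 1 and 0.0409 without NAM/PN replicate 3). Retnla, a secreted marker of alternatively activated macrophages, measured 90.0, 84.0 and 10.9 CPM in NAM/PN replicates 1 to 3 and 29.2, 23.3, 17.4, 4.51 and 14.6 CPM in vehicle replicates 1 to 5. NAM/PN replicates 1 and 2 were the highest of the 8 libraries, replicate 3 was the second lowest, and the log2 fold change was 1.79 (SE 0.54, 95% interval 0.69 to 2.89) with an unadjusted p of 0.00222. The chemokine Cxcl5 was also higher at an unadjusted p under 0.05, which rested on NAM/PN replicate 1 at 4.53 CPM. At that threshold 2 mediators were higher (1.62% of all genes) and 0 lower (1.13%). Gdf15, a stress cytokine, had a log2 fold change of -0.84 (SE 0.45). Stress and chaperone genes were negative in 17 of 24 members, with a median of -0.23 (-0.31 without vehicle replicate 2 and -0.0836 without vehicle replicate 4). Hsp90b1, a chaperone of the endoplasmic reticulum, ranged from 116 to 149.9 CPM with NAM/PN and 153 to 208 CPM with vehicle without overlap, and the haem oxygenase Hmox1 had a log2 fold change of -0.92 (SE 0.45). Sterol synthesis genes had a median of -0.19 (-0.23 without vehicle replicate 5 and -0.0467 without NAM/PN replicate 2) over 21 genes and ribosomal protein genes of 0.01 (-0.12 without NAM/PN replicate 1 and 0.0506 without NAM/PN replicate 3) over 64.

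Over all 12610 genes, whatever their level or fold change, 187 (1.48%) lay above all vehicle values and 165 (1.31%) below. Among all genes with an official symbol, 4 genes were higher with NAM/PN and 32 lower among those whose mean reached 1 CPM, whose groups did not overlap and whose log2 fold change was 1 or more in size. The 4 were Zfp94, a zinc finger gene, Col24a1, a fibrillar collagen, Nckap5 and Pkd2l2, with log2 fold changes of 1.37 (SE 0.47), 1.42 (SE 0.50), 1.55 (SE 0.56) and 1.08 (SE 0.45). Their levels were low, and Col24a1, for example, measured 2.88, 4.81 and 2.98 CPM in NAM/PN replicates 1 to 3 and 2.4995, 1.07, 1.05, 0.645 and 1.30 CPM in vehicle replicates 1 to 5. Among the 12 lower genes with the smallest p, 4 were the mitosis genes Tpx2, H2afx, Cdca3 and Cdca5. Paqr8 (ENSMUSG00000025931, chromosome 1, 20890606 to 20939650), a membrane progestin receptor, measured 0.686, 0.848 and 1.22 CPM in NAM/PN replicates 1 to 3 and 5.31, 1.67, 2.499, 9.02 and 3.70 CPM in vehicle replicates 1 to 5. Its 3 NAM/PN values were below the lowest vehicle value, the vehicle values themselves spread widely, and the log2 fold change was -2.24 (SE 0.58, 95% interval -3.41 to -1.06). Aldh1l2, a mitochondrial folate enzyme, measured 2.61, 0.990 and 3.39 CPM in NAM/PN replicates 1 to 3 and 4.69, 6.39, 6.05, 5.16 and 5.20 CPM in vehicle replicates 1 to 5 without overlap, with a log2 fold change of -1.23 (SE 0.43, 95% interval -2.11 to -0.35). The remaining 6 were Kcna2, a potassium channel, Chml, an escort protein of Rab GTPases, Lpar3, a receptor of lysophosphatidic acid, Fhdc1, Qrfp and Rgl3. Their log2 fold changes were -1.94, -1.20, -1.83, -1.74, -2.18 and -1.69, and apart from Chml their NAM/PN values were under 1 CPM. None of these genes passed the adjusted test.

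Whether the difference with NAM/PN depended on injury was tested as the difference between the legs of young mice, in 19 libraries. The edgeR interaction test called 12 genes of 12610 (0.0952%), all of them higher in the injured minus the contralateral leg, with the smallest adjusted p at 0.0323. All 12 are known to encode proteins that the liver secretes, and 7 are on the list of liver genes. Serpina1b, Serpina1c and Serpina1d among them are near-identical copies whose reads can be split in counting. Albumin (Alb) measured 81.3, 0 and 0.9496 CPM in NAM/PN replicates 1 to 3 and 0.156, 0.457, 1.18, 0 and 3.00 CPM in vehicle replicates 1 to 5. In the contralateral leg it was 225 CPM in vehicle replicate 1 and 507 CPM in vehicle replicate 3, and the other 9 libraries held up to 10.9 CPM. The interaction of Alb was a log2 difference of 9.99 (SE 2.06, edgeR adjusted p = 0.0377). Transthyretin (Ttr) and apolipoprotein A1 (Apoa1) gave 11.09 (SE 2.21) and 10.15 (SE 2.00), in fits where most libraries are at or near 0 counts, so that the size depends on the prior count. There were 0 such genes without NAM/PN injured replicate 1 or without any single one of the 5 vehicle injured libraries. There were 22 and 23 without NAM/PN injured replicates 2 and 3, and 0 without the 3 young libraries highest in liver genes. A voom fit with the mouse as a replicate block also gave 0, as did voom with quality weights and no block. Within the injured leg, 10 of 13 liver genes were higher at an unadjusted p under 0.05, against 1.62% of all genes. The list median of 3.69 was -0.97 without NAM/PN replicate 1.

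**Figure D4:**
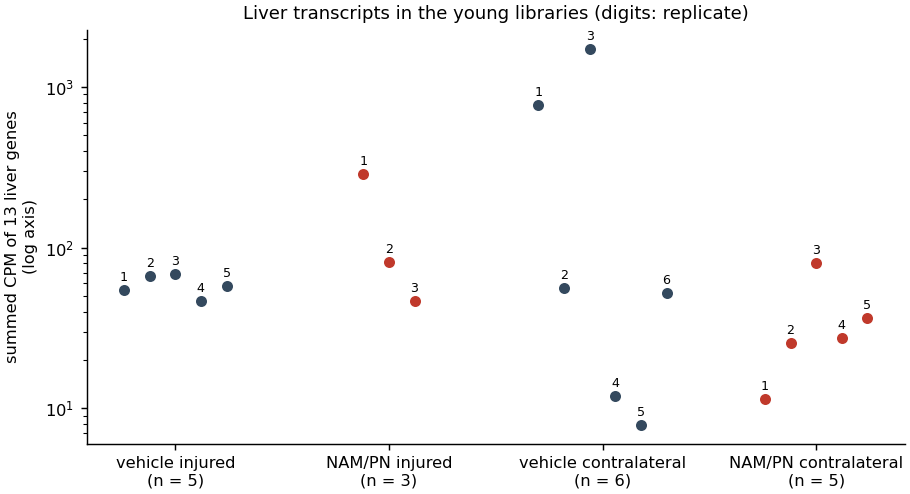
Summed CPM of the 13 liver genes tested (log axis) in each young library, by treatment and leg, with the replicate number above each point. NAM/PN injured replicate 1 (288 CPM) and vehicle contralateral replicates 1 (772 CPM) and 3 (1725 CPM) lie above the other 16 libraries.

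No mitosis or oxidative phosphorylation gene was called between the legs, which came in part from the same mice. In contralateral muscle, 49 of 68 mitosis genes were positive with NAM/PN (median 0.22) and 9 of 79 oxidative phosphorylation genes (median -0.23), where 0 genes passed an adjusted p of 0.05 and 614 had an unadjusted p under 0.05. The leg difference of Tpx2 was -1.60 (SE 0.42, edgeR adjusted p = 0.231), that of Mki67 -1.81 (SE 1.10, adjusted p = 0.99995) and that of Pax7 -1.09 (SE 0.50, adjusted p = 0.99995). Mki67 averaged 1.25 CPM with NAM/PN and 0.725 CPM with vehicle in the contralateral leg. Myh3 reached 101 CPM in 1 contralateral NAM/PN library, against at most 9.42 CPM with vehicle.

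The NAM/PN difference in young injured muscle was set beside that in aged injured muscle (4 NAM/PN and 3 vehicle mice), which shares no library with it. Mitosis genes had a median of -0.68 in young and 0.38 in aged mice, with 4 and 62 of 68 genes positive. Replication genes had medians of -0.47 and 0.34, oxidative phosphorylation genes of 0.26 and -0.44, fast fibre genes of 0.25 and -0.77, and matrix genes of -0.30 and 0.69. In each of these 5 lists the sign of the median differed between ages. It also differed in most of the other lists, among them macrophage, interferon-stimulated and tendon genes. In some lists, such as embryonic fibre and fat cell genes, it was the same at both ages. The interaction of treatment and age was tested per gene, and 0 of 12610 genes (0%) passed an adjusted p of 0.05 in edgeR, with 1106 at an unadjusted p under 0.05. DESeq2 called 90 genes and voom with quality weights 683, and without young NAM/PN injured replicate 1 edgeR called 6. The age difference of Tpx2 (aged minus young) was 1.57 (SE 0.44, edgeR adjusted p = 0.199), that of Sdha -0.88 (SE 0.23, adjusted p = 0.199) and that of Mki67 1.47 (SE 0.89, adjusted p = 0.697). That of Pax7 was -0.06 (SE 0.49, adjusted p = 0.994). All aged libraries are described in 1 style and the young NAM/PN libraries in the other, and the descriptions name the compound Cpd1 in every young and CPD2 in every aged NAM/PN library, while the titles read Treated in both. Whether the 2 names stand for the same preparation is not stated, so age, description style and compound name cannot be told apart in the NAM/PN groups.

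**Figure D5:**
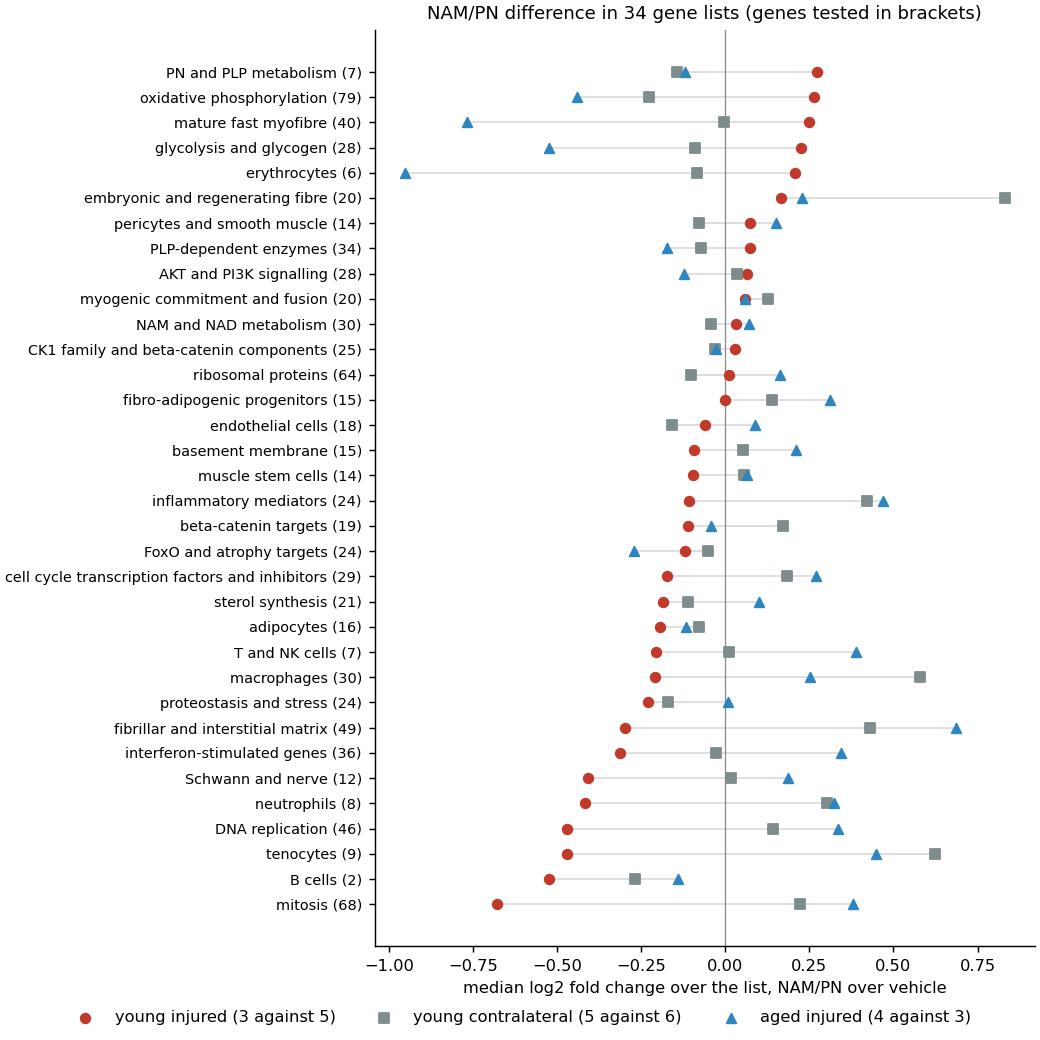
Median log2 fold change of NAM/PN over vehicle in 34 gene lists (genes tested in brackets), in young injured (red circles, 3 against 5 mice), young contralateral (grey squares, 5 against 6) and aged injured muscle (blue triangles, 4 against 3), ordered by the first. Mitosis and DNA replication are negative in young injured muscle and positive in the other two, and oxidative phosphorylation is positive in young injured muscle and negative in the other two. Mitosis genes were at low levels in contralateral muscle.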

How the data were processed

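RNA of gastrocnemius muscle tissue was sequenced as 3′ mRNA libraries (QuantSeq), in which reads come from transcript ends. The authors demultiplexed the reads, aligned them to GRCm38 with STAR and deposited raw counts per gene from HTSeq (version 2.16.2 per the labels), and the annotation release and strand setting are not given in the sources used here. Counts were analysed as deposited, in 1 table of 38 libraries with 27554 genes, and 27441 were given a symbol from GENCODE M21.

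Groups came from the sample titles. The study names filterByExpr by mouse group, TMM scaling and edgeR's quasi-likelihood test, and these were used here (edgeR 4.0.16, R 4.3.3, minimum count 10, minimum total 15). Fitting all 38 libraries in 1 model was a choice made here, and Benjamini-Hochberg adjusted p-values under 0.05 were called over all 12610 genes tested. CPM are TMM-scaled. Intervals and standard errors are from the same fit, and the script was tested on simulated data. Alternatives were RLE size factors, no filter, a filter at a mean of 1 CPM, DESeq2 1.42.0, limma 3.58.1 voom with quality weights, blocks by mouse or title number, description style, fewer libraries in the fit and leaving out each library. Leaving out libraries together was added after the data were seen.

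The comparison, gene lists and named genes were chosen with earlier results of these data known. The genes named were 29 fixed genes, up to 12 genes per direction whose log2 fold change was 1 or more in size, whose mean reached 1 CPM and whose groups did not overlap, and per list up to 3 genes with the smallest p and 2 with the highest level. The called genes of the leg comparison were named after their values were seen. A few genes that the rule would name are not reported here. Of the list entries, 103 were not tested, 98 of them under the filter. Promoter windows are from RefSeq. The 8 libraries compared come from 8 mice, but the spread behind all p-values is estimated over 38 libraries of 23 mice, many of which gave both legs, and the leg test treats the legs of a mouse as independent. The 13 pairs of replicates differed beyond sampling noise, with a chi-square per degree of freedom of at least 13.1. The same number in the titles of both treatments did not mark shared animals, and 1 of 3 such pairs deviated together (correlation above 0.1).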

Additional observations from a re-analysis of the deposited data

Results flagged for a closer look

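In the 5 young vehicle injured libraries, 140 groups of values were examined for a single library far from the others, and 10 had one, where chance gives about 1 in 20, or 7. Of these, 3 were in vehicle replicate 4: Psat1 at 28.5 CPM against 8.98 to 14.1 CPM in the other 4 libraries, S100a8 at 2.90 CPM against 0.789 to 1.20 CPM, and the sterol synthesis level at 3.33 against 2.96 to 3.06. In vehicle replicate 2, Mcm5 was low at 4.11 CPM against 6.97 to 7.73 CPM, while Fmod measured 230.4 CPM against 92.0 to 130.1 CPM and Abcc9 71.9 CPM against 46.4 to 53.0 CPM. Cdkn1a measured 653 CPM in vehicle replicate 3 against 356 to 420.1 CPM, and Cxcl5 1.25 CPM in vehicle replicate 1 against at most 0.322 CPM. Vehicle replicate 5 held Ttr at 0.600 CPM, which was at 0 in the other 4, and had a liver gene level of 1.29 against 0.624 to 0.777.

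The difference with NAM/PN was not the same in both legs of young mice for 12 genes by the edgeR interaction test. Among them, the log2 difference was 10.15 for Apoa1, 11.09 for Ttr and 9.99 for Alb. These values rest on NAM/PN injured replicate 1 and vehicle contralateral replicates 1 and 3, and without those 3 libraries 0 genes were called.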

How the results depend on the processing

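The count of 0 genes in young injured muscle held under all 20 alternatives, and the smallest adjusted p of a named gene over them was 0.0846, for H2afx. The 735 alternative values of list medians include, for each list, the difference of the mean list levels. Of these values, 684 moved by less than the spread between replicates and 51 did not. Separately, 51 values, in 17 lists, had the opposite sign to the main median, many of them near 0. Of 2043 alternative values of named genes, 1990 moved by less than the standard error of the gene's log2 fold change in the main fit. The causes of the changes below were not tested. The leg count of 12 became 19 without the filter, 1 with DESeq2, 0 with voom quality weights, 0 without the 3 libraries highest in liver genes and 0 to 23 on leaving out 1 library. With the title number as a replicate block in edgeR it was 0. The replicate block by mouse also gave 0, but in voom, which gave 0 with quality weights and no block. Mouse as a fixed term gave 0 in the 8 young mice with both legs, which leaves out vehicle contralateral replicate 3. In both mouse fits, the method or the libraries changed along with the block. In young injured muscle the mouse block gave 0 calls, with 497 genes at an unadjusted p under 0.05, and the title number block 0 calls, with 352. The age count of 0 became 90 with DESeq2, 683 with voom quality weights and 0 to 6 on leaving out 1 library. The mitosis median ranged from -1.05 to -0.54 on leaving out 1 library and was -1.07 without NAM/PN replicate 1 and vehicle replicate 4. Without both, medians were 0.13 for endothelial cells, -0.12 for ribosomal proteins and -0.96 for liver genes, and log2 fold changes -3.16 for Ttr, -1.40 for Alb and -0.48 for Apoa1. Without the filter, medians were -0.0605 for PN and PLP metabolism and 0.21 for B cells, and with vehicle libraries of 1 description style -0.0570 for pericytes and smooth muscle. On leaving out 1 library, medians ranged from -0.0243 to 0.10 for PLP-dependent enzymes, -0.0286 to 0.0432 for CK1 and beta-catenin components, -0.78 to 0.0611 for B cells, -0.0493 to 0.12 for pericytes and smooth muscle, -0.12 to 0.0506 for ribosomal proteins and -0.97 to 5.43 for liver genes. Log2 fold changes then ranged from -0.14 to 0.40 for Ckm, -0.0514 to 0.53 for Nampt, -2.93 to 8.41 for Ttr, -1.13 to 5.77 for Alb and -0.22 to 5.76 for Apoa1. At 4032414 to 6742277 counts per library, 1 CPM stands for 6.21 to 10.02 counts, which limits genes of low level.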
